A study of Homo sapiens with 24 samples.

Results

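The comparison described here is the difference between the responses of 2 multiple myeloma cell lines, MM1R and MM1S, to small interfering RNAs against IRF4. It used 12 of the 24 RNA-seq libraries of the series, 3 in each of 4 groups, chosen by the line and treatment in their labels. The other 12 libraries came from the myeloma lines KMS-12-BM and KMS-12-PE. They entered the choice of genes to test, the estimate of spread, 1 count, the recovery of whole reads and the alternative runs. MM1R siIRF4 and MM1S siIRF4 cells received a pool of siRNAs by electroporation and were labelled with a time of 48 hours. MM1R CTRL and MM1S CTRL cells were labelled as DMSO at 0 hours, and no control siRNA was named. Knockdown, electroporation, DMSO and time therefore cannot be told apart within a line. Each line is a single cell line, and the labels do not say that replicates were separate cultures, so every p-value here speaks only of how far the replicate libraries spread, which may be technical.

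IRF4 is a transcription factor that directs the formation of plasma cells and on which myeloma cells depend for growth. It binds DNA weakly by itself and pairs with ETS factors such as PU.1 (SPI1) or with AP-1 family factors on composite sites. MM1R and MM1S are known as sister lines from the same patient's parental line, MM1R resistant and MM1S sensitive to glucocorticoids.

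The reads recovered from the deposited values numbered 17.3 to 27.4 M per library in the 12 libraries. Most plasma cell genes were expressed in all of them, at unequal levels. XBP1, the factor of the secretory programme, lay between 1217 and 1394 TPM (transcripts per M, a level scaled for gene length and library total). CD27 of the same list did not exceed 5.75 TPM. Of 26 listed genes, 24 or 25 reached a mean of 1 TPM in each group. NR3C1, the glucocorticoid receptor, had 2.86, 2.57 and 3.07 TPM in the MM1R controls, while the MM1S controls had 43.5, 40.2 and 39.2 TPM; every MM1R library was below every MM1S library. Libraries of both lines also carried RNA of genes that plasma cells do not use, and which line had more depended on the gene. The keratins KRT5 and KRT14 lay between 16.8 and 65.8 TPM and between 17.6 and 56.9 TPM in the 6 MM1S libraries, and no MM1R library exceeded 0.0518 TPM of KRT5 or had any KRT14. The 13 stromal markers summed to 135 to 257 TPM in MM1S and to 19.4 to 39.2 TPM in MM1R. Other markers were higher in MM1R. HBB, an erythroid marker, lay between 19.4 and 29.9 TPM in MM1R and between 5.57 and 12.8 TPM in MM1S. EPCAM, an epithelial marker, had CTRL means of 3.18 TPM in MM1R and 1.36 TPM in MM1S. The lowest KRT5, KRT14 and S100A8 values of MM1S were in siIRF4 replicate 3.

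The test asked, for each of 15113 genes, whether siIRF4 minus CTRL on the log2(TPM + 1) scale differed between MM1R and MM1S. A positive difference means a higher siIRF4-to-CTRL response in MM1R, and the response of a single line is given as a value without a test. At an adjusted p under 0.05 (limma, Benjamini-Hochberg), 374 genes differed, which is 2.47% of those tested. The response was higher in MM1R for 173 genes (1.14%) and lower in MM1R for 201 genes (1.33%). The same test between KMS-12-BM and KMS-12-PE called 3476 genes (23.0%). Over all tested genes the median difference was -0.019, and the single values ran from -4.66 to 2.96, where 7 of the called rows were microRNA genes. Only 24 of the called genes differed by at least 1 on the log2 scale, and 163 by at least 0.5. The number of calls depended on single libraries: it was 248 without MM1R CTRL replicate 3, 215 and 234 without MM1R siIRF4 replicates 2 and 3, and 216 without MM1S CTRL replicate 2, with 154 genes called in each of the 12 fits that left out 1 library.

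Across genes the responses of the sister lines were close to proportional. Over the 9387 genes with a mean of at least 5 TPM in all 4 groups, the line of best fit (total least squares) of the MM1R on the MM1S response had a slope of 0.896. The correlation across these genes was 0.873, where genes are not independent replicates. Of 105 genes whose response was at least 1 in MM1S, 102 had the same sign in MM1R, with a median of 1.19 in MM1S and 1.03 in MM1R. All 39 genes at -1 or under in MM1S had the same sign in MM1R, with medians of -1.09 and -0.90. Chosen by MM1R instead, all 72 genes at 1 or above had the same sign in MM1S, with medians of 1.19 in MM1R and 1.2 in MM1S. Of the 26 genes at -1 or under in MM1R, 22 had the same sign in MM1S, with medians of -1.12 and -1.05. KRT15, the gene with the largest shared response in the plot of both responses, went from 18.1, 22.2 and 18.6 TPM to 186, 157 and 152 TPM in MM1R and from 8.48, 12.2 and 9.34 TPM to 83.3, 85.6 and 77.8 TPM in MM1S. Its difference between lines was 0.08 ± 0.25 (SE; limma, adjusted p = 0.924).

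**Figure D1:**
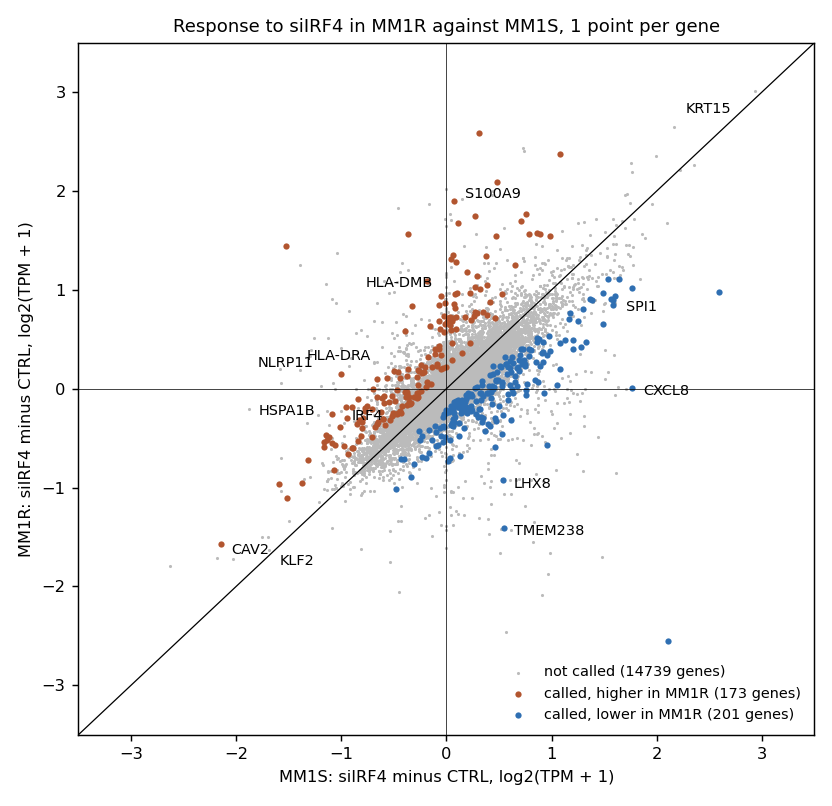
Each point is a tested gene, with its MM1S response on the x axis and its MM1R response on the y axis, both siIRF4 minus CTRL in log2(TPM + 1). The diagonal marks equal responses, and the 173 called genes above it and the 201 below it stand out from the 14739 genes that were not called.

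The called genes took 3 forms. In 163 of them both lines moved the same way with the larger value in MM1S, and 88 of these were positive and 75 negative. In 79 both moved the same way with the larger value in MM1R, 52 positive and 27 negative. In the other 132 the responses had opposite signs, and for 59 of these the value of 1 line was within 0.1 of 0. The siIRF4 and CTRL libraries did not overlap in either line, with opposite directions, for 51 of the 374 called genes (13.6%). Over all tested genes, called or not, this held for 0.688%, and nothing is read from the comparison since the calls use the same values. Taken line by line, the groups of 53.8% of all tested genes did not overlap in MM1R and those of 55.0% did not overlap in MM1S. Most called genes were expressed in both lines: 313 of 374 reached a group mean of 1 TPM in each, while 35 did so in MM1R only and 22 in MM1S only.

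IRF4, the targeted gene, was itself reduced less in MM1R. Its level was 376, 365 and 399 TPM in MM1R CTRL and 260, 299 and 314 TPM in MM1R siIRF4. In MM1S it was 298, 267 and 285 TPM in CTRL and 154, 130 and 137 TPM in siIRF4. The groups did not overlap in either line, and the highest MM1S siIRF4 library lay under every MM1R siIRF4 library. The response was -0.39 in MM1R and -1.01 in MM1S, a difference of 0.62 ± 0.094 (SE; limma, adjusted p = 0.000908). It kept its sign and its call in each alternative run, and lay between 0.56 and 0.70 leaving out 1 library at a time. In bulk libraries, fewer cells with the siRNA and less reduction per cell cannot be told apart. The part of this unequal reduction in the differences described next was not tested.

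The clearest group was the MHC class II genes, whose products display peptides to CD4 T cells and which B cells express and plasma cells largely silence. Of 14 listed genes, 6 (42.9%) had a higher response in MM1R, against 1.14% of all genes, and none a lower one. Their median difference was 0.33, against -0.019 over all genes, and 12 of 14 were above 0. This list, like the others, was written with earlier results of these data known, so its share is only a description. The CTRL libraries of both lines expressed HLA-DRA and CD74 at readily measured levels, so the group was not at 0 in either line before siIRF4.

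HLA-DRA, the alpha chain of HLA-DR, was at 30.5, 30.1 and 29.8 TPM in MM1R CTRL and at 32.7, 35.1 and 35.3 TPM in MM1R siIRF4. In MM1S it was at 38.7, 39.6 and 37.4 TPM in CTRL and at 25.9, 27.5 and 27.5 TPM in siIRF4. Every siIRF4 library was above CTRL in MM1R and every one was below CTRL in MM1S. The difference was 0.69 ± 0.083 (SE; limma, adjusted p = 0.000114), and it held in each alternative run.

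HLA-DRB5, a beta chain of HLA-DR, went from 1.45, 2.04 and 2.85 to 4.30, 4.44 and 4.66 TPM in MM1R and from 3.79, 3.97 and 4.93 to 3.45, 2.68 and 3.36 TPM in MM1S. Again the groups did not overlap and moved in opposite directions, with a difference of 1.16 ± 0.16 (SE; limma, adjusted p = 0.00037). HLA-DRB1, a near-identical copy, had a difference of 0.42 ± 0.12 that missed the threshold (limma, adjusted p = 0.0715), and reads could be shared between the copies, so the split between them is uncertain. HLA-DPA1, the alpha chain of HLA-DP, differed by 0.40 ± 0.073 (SE; limma, adjusted p = 0.00463) and was also up in all MM1R and down in all MM1S siIRF4 libraries. With a pseudocount of 0.1 its difference was 0.45 with an adjusted p of 0.135.

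CD74, the invariant chain that guides class II molecules to the endosome, was by far the most abundant member. Its levels were 1436, 1388 and 1547 TPM in MM1R CTRL and 1662, 1721 and 1751 TPM in MM1R siIRF4, with no overlap. In MM1S they were 1195, 1237 and 1269 TPM in CTRL and 1206, 1087 and 1175 TPM in siIRF4, which overlapped. The difference was 0.33 ± 0.071 (SE; limma, adjusted p = 0.0154).

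HLA-DMB and HLA-DOB, the beta chains of the peptide editor HLA-DM and of its inhibitor HLA-DO, had siIRF4 and CTRL groups that stood apart in MM1R and overlapped in MM1S. HLA-DMB went from 0.655, 0.534 and 0.606 to 2.30, 2.05 and 1.96 TPM in MM1R, while MM1S had 0.620, 0.415 and 0.588 TPM in CTRL and 0.668, 0.559 and 0.672 TPM in siIRF4. HLA-DOB went from 5.17, 5.00 and 5.21 to 9.03, 8.77 and 8.82 TPM in MM1R, while MM1S overlapped at 2.16, 1.30 and 2.07 TPM in CTRL and 1.45, 1.84 and 1.79 TPM in siIRF4. The differences of 0.87 ± 0.11 and 0.76 ± 0.13 (SE; limma, adjusted p = 0.000169 and 0.00219) held in each alternative that tested these genes. HLA-DMA differed by 0.33 ± 0.10 and HLA-DPB1 by 0.29 ± 0.092, and neither passed (limma, adjusted p = 0.0884 and 0.0995). The remaining members, HLA-DQA1, HLA-DQB1, HLA-DQA2, HLA-DQB2 and HLA-DOA, did not exceed 1.69 TPM in any of the 12 libraries and had differences between -0.16 and 0.09.

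**Figure D2:**
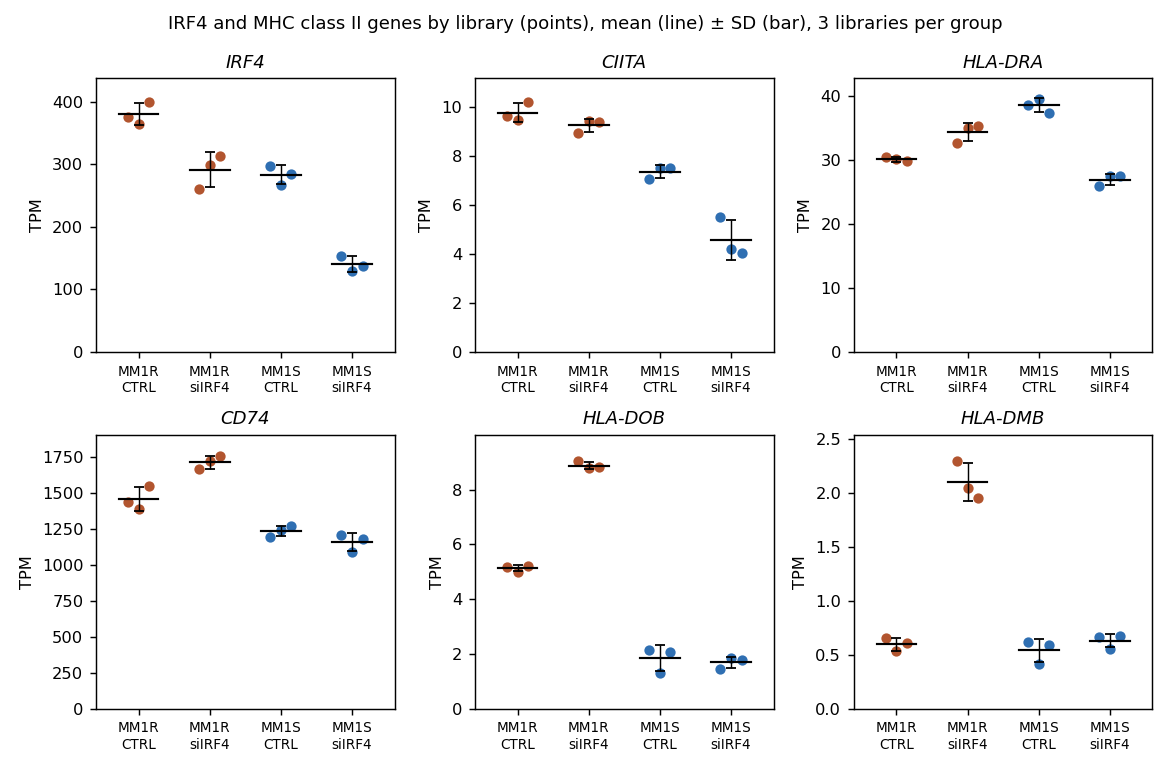
TPM of IRF4, CIITA and 4 MHC class II genes in the 12 libraries on linear axes from 0, as points with the group mean (line) and SD (bar), 3 libraries per group. HLA-DRA and CD74 are higher with siIRF4 in all MM1R libraries, HLA-DRA is lower in all MM1S libraries, and HLA-DMB reaches 2.30 TPM in MM1R siIRF4 against 0.672 TPM at most in MM1S siIRF4.

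CIITA, the coactivator on which class II transcription depends, showed a difference of the same sign. It was at 9.64, 9.44 and 10.2 TPM in MM1R CTRL and at 8.92, 9.40 and 9.38 TPM in MM1R siIRF4. MM1S had 7.04, 7.49 and 7.52 TPM in CTRL and 5.52, 4.20 and 4.03 TPM in siIRF4. The siIRF4 libraries were below CTRL in both lines, with responses of -0.07 in MM1R and -0.59 in MM1S. The difference of 0.52 ± 0.11 (SE; limma, adjusted p = 0.0141) kept its size and lost its call with the 12 libraries alone (adjusted p = 0.0574) and with a replicate block (adjusted p = 0.0545). The 3 subunits of the RFX complex, which binds class II promoters and recruits CIITA, did not pass: RFX5 differed by 0.10, RFXAP by 0.01 and RFXANK by 0.08. None of 15 genes of the MHC class I and antigen processing list was called, and their median difference was -0.003. The list is too short to set this apart from the 2.47% of all genes.

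Genes near this pathway but outside the list, chosen after their values were seen, did not all follow it. IFI30, a lysosomal thiol reductase of class II antigen processing, had a lower response in MM1R, with a difference of -0.32 ± 0.062 (SE; limma, adjusted p = 0.00692). Its siIRF4 libraries were below CTRL in MM1R and above CTRL in MM1S, the reverse of HLA-DRA. BTN2A2, a butyrophilin encoded near the MHC, differed by 0.38 (limma, adjusted p = 0.00548), with means of 49.0 and 55.2 TPM in MM1R CTRL and siIRF4 and of 62.8 and 54.2 TPM in MM1S.

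Class II promoters share an X box, bound by the RFX complex, and a Y box holding CCAAT, bound by NF-Y. Promoter windows from RefSeq (GRCh38.p14, not the hg19 build of the study) were available for 13 of the 14 members and for 10285 of the tested genes. The letters CTGATGAT, which lie in the X box region of several members and were chosen after the sequences were read, occurred on either strand in 5 of the 13 windows, against 0.593% of the tested genes' windows. Since the letters were picked from these same promoters, nothing is read from that comparison. Among called members they were in 3 of 5 windows, so members that were not called held them too. CCAAT occurred in 12 of 13, against 43.1%. The 3 stretches shown are those of the called members in which both were found. They are printed on the strand of the gene, from 10 bases before the first match to 10 after the last, with CTGATGAT and CCAAT (or its complement ATTGG) in capitals.
HLA-DRB5 (chr6:32530363-32530415, minus strand): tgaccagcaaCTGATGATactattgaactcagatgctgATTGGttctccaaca
HLA-DOB (chr6:32817086-32817137, minus strand): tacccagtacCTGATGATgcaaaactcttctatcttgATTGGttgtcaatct
HLA-DMB (chr6:32941036-32941121, minus strand): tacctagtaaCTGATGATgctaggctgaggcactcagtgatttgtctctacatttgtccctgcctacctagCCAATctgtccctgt
In HLA-DRB5 and HLA-DOB the matches were 20 and 19 bases apart, and in HLA-DMB they were 53 bases apart with CCAAT on the other strand.

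Composite sites of IRF4 itself were looked for in the same windows, on both strands. The ETS-IRF composite letters, GGAA and GAAA with any 2 bases between, occurred in 3.53% of the tested genes' windows, in 4.24% (5 of 118) of those higher in MM1R and in 2.05% (3 of 146) of those lower in MM1R. The interferon-response letters, GAAA and GAAA with any 2 bases between, occurred in 4.17%, 2.54% and 6.85% of the same sets. Neither was found in a class II window. A match here is only a description of letters in these windows, and no match says only that the letters are not in the window.

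B cell genes outside the class II list moved both ways. Of 14 tested members of the B cell list, CIITA, CD79A and CD40 had a higher response in MM1R and SPI1 a lower one (28.6% called, against 2.47% of all genes). The median difference was 0.11. CD79A, the signalling chain of the B cell receptor, went from 7.85, 7.02 and 9.30 to 15.3, 14.9 and 16 TPM in MM1R and overlapped in MM1S at 1.61, 1.47 and 1.21 against 1.98, 1.15 and 1.56 TPM. The difference of 0.79 ± 0.17 (SE; limma, adjusted p = 0.0161) lost its call on recovered reads with voom (0.86, adjusted p = 0.183). CD40, a costimulatory receptor, went from 9.0, 8.86 and 6.89 to 24.4, 19.5 and 19.1 TPM in MM1R and from 13.2, 14.3 and 15.1 to 22.3, 22.7 and 23.8 TPM in MM1S. Both lines moved up without overlap, MM1R by more (difference 0.59 ± 0.15 SE; limma, adjusted p = 0.0341), and the call was kept in 6 of the 12 fits that left out 1 library.

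SPI1, which encodes PU.1, the ETS partner of IRF4, had the opposite difference. It was at 42.1, 38.9 and 40.7 TPM in MM1R CTRL and at 90.1, 79.4 and 67.4 TPM in MM1R siIRF4. MM1S went from 15.2, 18.0 and 18.3 TPM to 53.8, 55.7 and 52.8 TPM. All siIRF4 libraries were above CTRL in both lines, and the relative step was larger in MM1S, with a difference of -0.67 ± 0.13 (SE; limma, adjusted p = 0.00863). With a pseudocount of 0.1 the value was -0.70 and the call was lost (adjusted p = 0.459).

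Several surface receptors of B and dendritic cells were seen almost only in MM1R, and for these the size of the difference depends on the scale. CXCR5, the follicle-homing chemokine receptor, went from 3.66, 3.53 and 3.55 to 11.1, 9.46 and 9.96 TPM in MM1R and did not exceed 0.252 TPM in MM1S. Its difference of 1.19 ± 0.12 (SE; limma, adjusted p = 2.43e-05) became 0.23 on recovered reads with voom (adjusted p = 0.924). The added 1 TPM makes ratios near 0 small on this scale. LILRA4, a leukocyte immunoglobulin-like receptor, had the same form, with 1.43, 1.61 and 1.34 against 5.65, 5.12 and 5.13 TPM in MM1R and at most 0.0694 TPM in MM1S. Its difference was 1.29 and became 0.75 with voom (adjusted p = 0.663). Whether such genes respond by a different factor in MM1S was not detectable at this depth.

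CD180 and CNR2, chosen after their values were seen, were near 0 in both CTRL groups. CD180, a relative of the Toll-like receptors on B cells, reached 3.45, 2.23 and 2.35 TPM in MM1R siIRF4 and 0.262, 0.164 and 0.241 TPM in MM1S siIRF4. CNR2, a cannabinoid receptor of B cells, reached 2.55, 2.80 and 2.49 TPM in MM1R siIRF4 and 0.0668, 0.0629 and 0.184 TPM in MM1S siIRF4. The groups of the lines did not overlap, and the differences were 1.48 ± 0.17 and 1.56 ± 0.10 (SE; limma, adjusted p = 9.37e-05 and 2.13e-08). On recovered reads they were 1.70 and 2.64 (adjusted p = 0.307 and 0.0545). FCRLA, an Fc receptor-like protein of B cells chosen in the same way, went from 11.4, 9.49 and 11.5 to 17.0, 19.4 and 19.2 TPM in MM1R and overlapped in MM1S between 4.53 and 5.86 TPM, a difference of 0.64 ± 0.13 (SE; limma, adjusted p = 0.00863).

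Of 25 tested plasma cell genes, IRF4, CAV1 and FKBP11 differed (12%, against 2.47% of all genes), all higher in MM1R. The share counts IRF4, the target of the siRNAs, whose difference is given above. The differences over the list ran from -0.29 to 0.62 with a median of 0.089. PRDM1, the factor that commits B cells to plasma cells, went from 140, 130 and 142 to 99.1, 106 and 106 TPM in MM1R and from 129, 120 and 125 to 98.1, 85.9 and 89.1 TPM in MM1S, with a difference of 0.05 (limma, adjusted p = 0.802). TNFRSF17, the BCMA receptor, went from a range of 832 to 903 TPM to 512 to 537 TPM in MM1R and from 444 to 515 TPM to 237 to 241 TPM in MM1S. Its difference of 0.33 ± 0.092 did not pass (SE; limma, adjusted p = 0.0651).

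The caveolins had some of the strongest reductions in both lines, and they were deeper in MM1S. CAV2, chosen after its values were seen, went from 69.8, 66.3 and 66.6 to 20.2, 23.5 and 23.0 TPM in MM1R and from 66.8, 58.5 and 62.3 to 14.6, 12.6 and 12.9 TPM in MM1S. The CTRL levels of the lines overlapped and the siIRF4 levels did not, with a difference of 0.58 ± 0.098 (SE; limma, adjusted p = 0.00229) that held in each alternative run. CAV1, its partner in caveolae, differed by 0.42 ± 0.11 (limma, adjusted p = 0.039), a call kept in 2 of the 12 fits that left out 1 library. FKBP11, a prolyl isomerase of the endoplasmic reticulum, differed by 0.24 ± 0.054 (limma, adjusted p = 0.0189).

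Of 16 genes linked to IRF4 in myeloma, IRF4, MYC and SUB1 were called (18.8%, against 2.47% of all genes), all higher in MM1R. This share counts IRF4, the target of the siRNAs, whose difference is given above. The median difference of the list was -0.015. SUB1, a transcriptional coactivator, went from 487, 465 and 460 to 356, 376 and 387 TPM in MM1R and from 599, 538 and 526 to 356, 356 and 348 TPM in MM1S (difference 0.31 ± 0.063 SE; limma, adjusted p = 0.00897). MYC, the growth regulator described as a partner of IRF4 in myeloma, was above CTRL in all siIRF4 libraries of both lines. It went from 309, 309 and 325 to 448, 428 and 425 TPM in MM1R and from 440, 467 and 475 to 571, 517 and 529 TPM in MM1S. The difference of 0.24 ± 0.062 (SE; limma, adjusted p = 0.0466) was called in 3 of the 12 fits that left out 1 library. KLF2, another gene tied to IRF4 in myeloma, showed close values in both lines, with responses of -1.63 and -1.68 and a difference of 0.05 ± 0.21.

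Of 17 tested heat shock genes, 4 were called (23.5%, against 2.47% of all genes), all higher in MM1R. The median difference was 0.17, with 15 members above 0 and 2 below, the lowest at -0.31. HSPA1B, the inducible HSP70, went from 4.18, 3.85 and 4.0 to 3.38, 3.18 and 3.64 TPM in MM1R and from 12.8, 11.5 and 12.9 to 6.30, 5.46 and 5.97 TPM in MM1S. No groups overlapped, and the reduction was deeper in MM1S, where the CTRL level was higher (difference 0.77 ± 0.10 SE; limma, adjusted p = 0.000296). Its near-identical copy HSPA1A can share reads with it. DNAJB1, the HSP40 partner of HSP70, had a difference of 0.30 ± 0.063 (limma, adjusted p = 0.0118), HSPA8, the constitutive HSC70, one of 0.30 ± 0.068 (adjusted p = 0.0224) and HSPD1, the mitochondrial HSP60, one of 0.24 ± 0.054 (adjusted p = 0.0215), where the calls of HSPA8 and HSPD1 were kept in 9 of the 12 fits that left out 1 library. For all 4 the MM1S CTRL libraries had the highest levels of the 4 groups.

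Of 35 genes of the unfolded protein response and the endoplasmic reticulum, 5 were called (14.3%, against 2.47% of all genes), all higher in MM1R. The list had a median of 0.072, with 26 members above 0 and 9 below, and its lowest value of -1.33 was not called. HERPUD1, a component of the degradation machinery of the endoplasmic reticulum, went from 822, 781 and 809 to 1021, 1035 and 1004 TPM in MM1R and from 611, 611 and 591 to 606, 565 and 580 TPM in MM1S. MM1R moved up without overlap and MM1S overlapped, a difference of 0.40 ± 0.051 (SE; limma, adjusted p = 0.000165). SEL1L, an adaptor of the same machinery, instead moved down in both lines, from 117, 108 and 119 to 71.2, 78.0 and 80.5 TPM in MM1R and from 126, 118 and 119 to 66.0, 58.5 and 58.4 TPM in MM1S. Its difference was also 0.40 (± 0.074 SE; limma, adjusted p = 0.00554). PDIA6, SEC61B and ATF6 were called with differences of 0.19, 0.20 and 0.25, each in 2 or 3 of the 12 fits that left out 1 library.

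**Figure D3:**
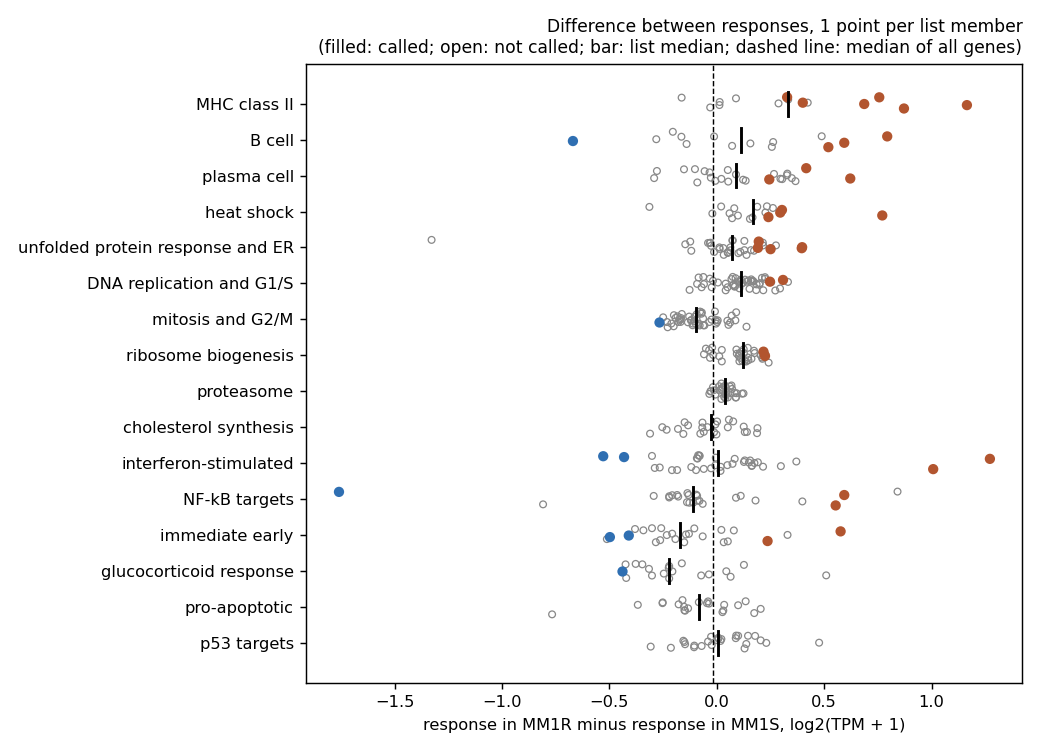
The x axis gives the response in MM1R minus that in MM1S, in log2(TPM + 1), with 1 point per tested member of 16 of the 42 lists. Filled points are called, the bar is the list's median and the dashed line the median of all genes at -0.019. MHC class II has 6 of its 14 points called on the right, while the proteasome genes have none called.

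In the cell cycle lists the share of called genes was near the 2.47% of all genes. The median response of 49 DNA replication and G1/S genes was -0.70 in MM1R and -0.80 in MM1S, and CDC45, a helicase subunit, and RFC5, a clamp loader subunit, were called (4.08% of the list; differences 0.25 and 0.31). Of the 49, 40 lay above 0. The 47 mitosis and G2/M genes had medians of -0.71 and -0.61, and PTTG1, the securin, was called at -0.27 (2.13% of the list). Of the 47, 38 lay below 0. These 3 calls were kept in 2 to 4 of the 12 fits that left out 1 library.

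In metabolism, PDK1, the kinase that restrains pyruvate dehydrogenase, went from 215, 204 and 213 to 152, 165 and 162 TPM in MM1R and from 179, 160 and 161 to 101, 91.3 and 93.5 TPM in MM1S. The reduction was deeper in MM1S (difference 0.40 ± 0.076 SE; limma, adjusted p = 0.00563). ACSS2, which makes acetyl-CoA from acetate, went from 22.5, 22.7 and 22.7 to 26.6, 26.6 and 26.9 TPM in MM1R and from 11.7, 13.1 and 12.6 to 23.5, 20.7 and 20.8 TPM in MM1S. All siIRF4 libraries were above CTRL and the step was larger in MM1S (difference -0.52 ± 0.098 SE; limma, adjusted p = 0.00554). GPX1, the glutathione peroxidase, was chosen after its values were seen. It went from 136, 149 and 145 to 227, 209 and 220 TPM in MM1R and from 80.6, 83.5 and 79.2 to 87.1, 84.3 and 87.5 TPM in MM1S, a larger step in MM1R (difference 0.52 ± 0.088 SE; limma, adjusted p = 0.00238). Of the ribosome biogenesis list, WDR43 and ODC1, the polyamine enzyme, were called at 0.22 each, and in the ATF4 list the pseudokinase TRIB3 was called at -0.40. ANKRD37, a hypoxia-induced gene, was called at 0.65. The called shares were 5.88% of 34 ribosome biogenesis genes and 3.57% of 28 genes of the ATF4 list. PDK1 was the only call among 26 glycolysis genes (3.85%) and ACSS2 among 14 fatty acid synthesis genes (7.14%). The hypoxia list had 15% of 20 called, ANKRD37 and PDK1 higher and BHLHE40 lower in MM1R. Over all genes the share was 2.47%. Leaving out 1 library at a time kept the call of WDR43 in 12 fits, of ODC1 and TRIB3 in 8 and of ANKRD37 in 5, and a replicate block ended the calls of ODC1, TRIB3 and ANKRD37.

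No member was called in the lists of interferon regulatory factors (which leaves out IRF4), cyclin-CDK inhibitors and D cyclins, histone clusters, proteasome, cytosolic and mitochondrial ribosomal proteins, oxidative phosphorylation, cholesterol synthesis, p53 targets, NRF2 targets, lysosome and autophagy, acetyltransferases, BET readers and deacetylases, integrins and adhesion, or siRNA and RNA sensors. The pro-apoptotic (21 tested) and anti-apoptotic (10 tested) lists also had none. With 2.47% of all genes called, no call in lists of this length does not set them apart from other genes. BMF, a BH3-only death activator with a large response, went from 53.4, 51.5 and 52.4 to 165, 149 and 143 TPM in MM1R and from 39.7, 44.3 and 40.8 to 163, 155 and 151 TPM in MM1S. All siIRF4 libraries were above CTRL, and the difference of -0.37 ± 0.14 did not pass (SE; limma, adjusted p = 0.158). MCL1, a survival protein of myeloma cells, differed by 0.02 ± 0.078.

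Of 19 tested members of the glucocorticoid response list, TSC22D3 alone passed (5.26%, against 2.47% of all genes). The differences of 15 of the 19 were below 0, with a median of -0.22, against 8323 of 15113 over all genes. TSC22D3, which encodes the glucocorticoid-induced leucine zipper, went from 59.4, 57.5 and 63.7 to 88.4, 83.1 and 80.3 TPM in MM1R and from 22.5, 20.5 and 21.7 to 40.8, 43.2 and 40.7 TPM in MM1S. Both lines moved up without overlap, and the relative step was larger in MM1S (difference -0.44 ± 0.11 SE; limma, adjusted p = 0.033). The call was kept in 3 of the 12 fits that left out 1 library. NR3C1 went to 2.55, 2.67 and 2.61 TPM in MM1R siIRF4 and to 50.2, 49.0 and 47.8 TPM in MM1S siIRF4, a difference of -0.34 ± 0.093 that did not pass (SE; limma, adjusted p = 0.0578). DDIT4, a stress-induced mTOR inhibitor, differed by -0.43 (limma, adjusted p = 0.0534) and PIK3IP1, a PI3K inhibitor, by -0.07 (limma, adjusted p = 0.833).

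Immediate early genes, which cells switch on within minutes of a signal, split. JUN and MYC had higher and DUSP6 and KLF10 lower responses in MM1R, of 24 tested (16.7%, against 2.47% of all genes) with a median of -0.17. JUN, an AP-1 subunit, went from 15.5, 14 and 14.2 to 8.98, 9.37 and 9.69 TPM in MM1R and from 22, 27.1 and 24 to 11.3, 9.58 and 10.0 TPM in MM1S. The reduction was deeper in MM1S (difference 0.58 ± 0.098 SE; limma, adjusted p = 0.00246) and held in each alternative run. DUSP6, the phosphatase that restrains ERK, differed by -0.50 ± 0.13 (limma, adjusted p = 0.042), a call kept in 2 of the 12 fits that left out 1 library and lost with a replicate block (adjusted p = 0.112). KLF10, a zinc finger factor, differed by -0.41 ± 0.092 (limma, adjusted p = 0.0202), kept in 8 of the 12. Of the kinases of the ERK cascade, MAPK3 (ERK1) and MAP2K2 (MEK2), chosen after their values were seen, had steps in MM1S that MM1R did not match. MAPK3 went from 99.6, 97.5 and 101 to 113, 110 and 114 TPM in MM1R and from 79.8, 85.3 and 86.5 to 135, 124 and 129 TPM in MM1S (difference -0.45 ± 0.064 SE; limma, adjusted p = 0.00058). MAP2K2 differed by -0.38 ± 0.063 (limma, adjusted p = 0.00212).

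Among 36 tested interferon-stimulated genes, 2 had a higher and 2 a lower response in MM1R (11.1% called, against 2.47% of all genes), with a median difference of 0.006 and median responses of 0.55 and 0.59. DTX3L, a ubiquitin ligase, went from 5.32, 5.38 and 5.37 to 13.2, 12.3 and 12.7 TPM in MM1R and from 6.14, 6.70 and 5.19 to 20.2, 21.6 and 20.5 TPM in MM1S (difference -0.53 ± 0.12 SE; limma, adjusted p = 0.02), a call kept in 9 of the 12 fits that left out 1 library. OAS3, which makes the activator of RNase L, differed by -0.43 (limma, adjusted p = 0.0466), a call kept in 1 of the 12 fits that left out 1 library. Of the interferon regulatory factors other than IRF4, none of 7 tested passed, too few to set against the 2.47% of all genes. Their differences ran from -0.19 for IRF5 to 0.19 for IRF8, with IRF1 at -0.01 and IRF9 at 0.00. IFNAR2, a chain of the type I interferon receptor chosen after its values were seen, was at 143, 134 and 147 TPM in MM1R CTRL and at 135, 136 and 138 TPM in MM1R siIRF4. MM1S went from 145, 143 and 141 to 112, 110 and 109 TPM. The groups overlapped in MM1R and not in MM1S, a difference of 0.32 ± 0.059 (SE; limma, adjusted p = 0.00496). In the NF-kB list, CD40, LTB and the chemokine CXCL8 were called of 25 tested (12%, against 2.47% of all genes), and the last, at -1.76, did not exceed 0.395 TPM in any library except MM1S siIRF4, which had 1.32, 2.55 and 7.03 TPM. The CXCL8 call was kept in 7 of the 12 fits that left out 1 library and lost with the 12 libraries alone (adjusted p = 0.141), a replicate block (0.0726) and voom (0.163).

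The genes with a lower response in MM1R included several whose lines moved in opposite directions. BHLHE40, a transcriptional repressor, went from 12.2, 10.5 and 12.6 to 8.67, 8.66 and 9.08 TPM in MM1R and from 6.51, 6.89 and 6.46 to 8.75, 9.46 and 9.26 TPM in MM1S. The siIRF4 levels of the lines overlapped, the CTRL levels did not, and the difference was -0.79 ± 0.088 (SE; limma, adjusted p = 5.1e-05). LHX8, a LIM homeobox factor, went from 1.35, 2.59 and 1.36 to 0.282, 0.353 and 0.660 TPM in MM1R and from 6.50, 6.33 and 7.11 to 9.16, 10.3 and 11.0 TPM in MM1S. It moved down without overlap in MM1R and up without overlap in MM1S, a difference of -1.47 ± 0.19 (SE; limma, adjusted p = 0.000165). NRTN, the growth factor neurturin, had the same pattern at lower precision, with a difference of -1.06 ± 0.20 (limma, adjusted p = 0.00627). All calls of BHLHE40 and LHX8 held in each alternative that tested them.

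F2RL3, the thrombin receptor PAR4, moved up in both lines, from 25.8, 27.5 and 29.3 to 37.7, 37.0 and 35.7 TPM in MM1R and from 8.78, 9.74 and 10.9 to 25.1, 23.6 and 22.9 TPM in MM1S. The step in MM1S was larger, and the difference of -0.80 ± 0.13 (SE; limma, adjusted p = 0.00161) held in each alternative run. RTN4RL2, a Nogo receptor relative, was flat in MM1R at 27.8, 26.2 and 26.7 against 30.2, 26.0 and 23.9 TPM and went from 4.60, 6.92 and 5.69 to 10.6, 9.25 and 10.9 TPM in MM1S (difference -0.77 ± 0.17 SE; limma, adjusted p = 0.016). TGFBR1, the type I receptor of TGF-beta, chosen after its values were seen, went from 10.4, 8.72 and 9.45 to 11.8, 11.5 and 11.6 TPM in MM1R and from 10.5, 9.61 and 10.2 to 19.9, 20.1 and 19.7 TPM in MM1S (difference -0.65 ± 0.096 SE; limma, adjusted p = 0.000654). TNFRSF8, the CD30 receptor, went from 7.17, 7.83 and 7.97 to 3.79, 4.78 and 4.70 TPM in MM1R and overlapped in MM1S between 0.679 and 1.42 TPM. Its difference of -0.81 ± 0.14 (SE; limma, adjusted p = 0.0036) was -1.06 on recovered reads (adjusted p = 0.0792).

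The next 5 called genes were chosen after their values were seen, and no list of cytoskeletal genes was tallied. ZYX, the focal adhesion protein zyxin, went from 45.2, 42.2 and 50.7 to 35.0, 37.1 and 36.3 TPM in MM1R and from 44.3, 41.9 and 44.2 to 61.7, 50.3 and 54.1 TPM in MM1S. The CTRL levels of the lines overlapped, and siIRF4 moved them apart without overlap (difference -0.67 ± 0.099 SE; limma, adjusted p = 0.000599). ACTG1, the gamma actin, went from 3225, 3109 and 3415 to 2451, 2688 and 2744 TPM in MM1R and was between 3473 and 3824 TPM in all MM1S libraries, a difference of -0.36 ± 0.069 (SE; limma, adjusted p = 0.00621). CNN2, a calponin, was at 353, 340 and 359 against 325, 334 and 343 TPM in MM1R and went from 302, 303 and 316 to 402, 384 and 385 TPM in MM1S. Its difference was -0.42 ± 0.064 (SE; limma, adjusted p = 0.000945). SRF, a factor that drives many actin genes, went from 38.0, 36.8 and 39.2 to 30.9, 27.0 and 28.5 TPM in MM1R and overlapped in MM1S between 34.9 and 37.5 TPM (difference -0.37 ± 0.076 SE; limma, adjusted p = 0.0103). ACTB, the beta actin, had a difference of -0.30 (limma, adjusted p = 0.0375) that was called in 3 of the 12 fits that left out 1 library, while the other 4 genes held in each alternative run. Transcripts of the genes lower in MM1R had a median GC content of 53.3%, against 47.1% for those higher in MM1R and 48.6% for all tested genes with a match. With a GC correction within libraries 631 genes were called, 335 of the 374 among them.

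**Figure D4:**
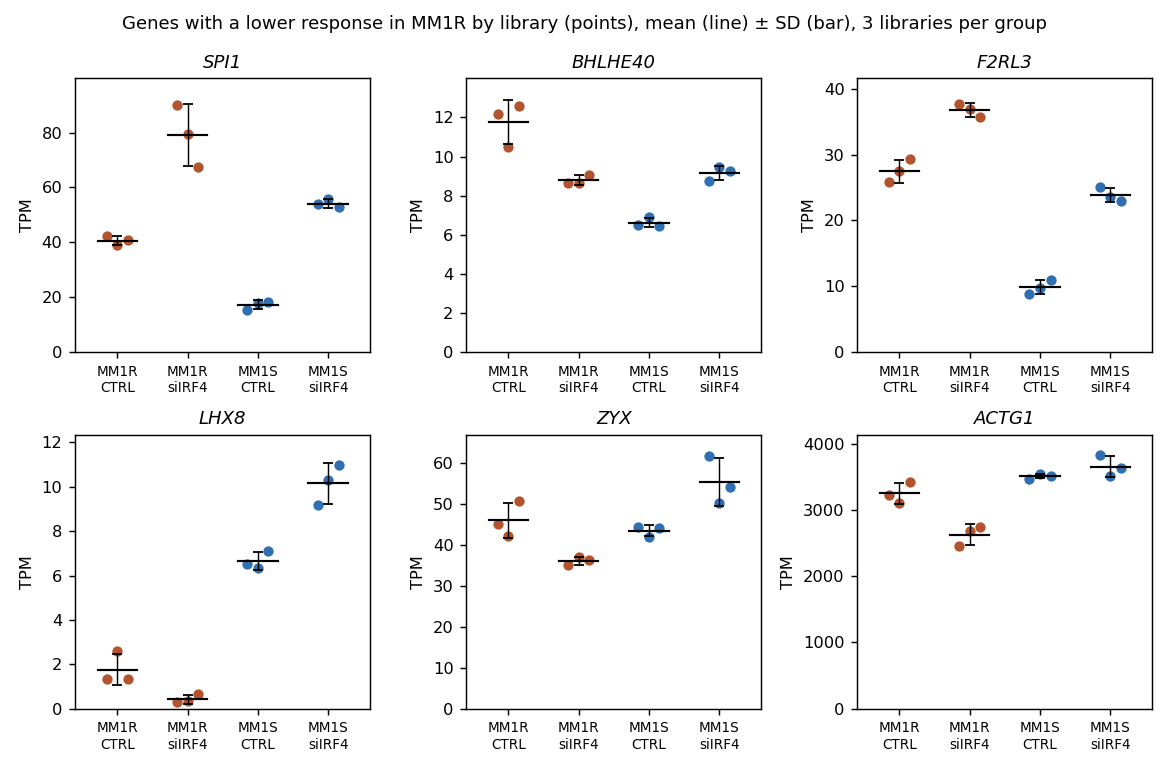
TPM of 6 genes with a lower response in MM1R, in the 12 libraries on linear axes from 0, as points with the group mean (line) and SD (bar), 3 libraries per group. SPI1 and F2RL3 are higher with siIRF4 in both lines, BHLHE40, LHX8 and ZYX are lower in MM1R and higher in MM1S, and ACTG1 is lower in MM1R while its MM1S groups overlap.

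Opposite movement on the higher side is shown by NLRP11, an innate immune sensor of the NLR family. It was at 132, 123 and 126 TPM in MM1R CTRL and at 143, 141 and 139 TPM in MM1R siIRF4, and went from 4.84, 4.36 and 4.28 to 1.79, 1.77 and 1.64 TPM in MM1S. The difference was 1.15 ± 0.15 (SE; limma, adjusted p = 0.000165). NFIL3, a bZIP repressor chosen after its values were seen, went from 126, 115 and 118 to 104, 102 and 102 TPM in MM1R and from 156, 147 and 156 to 92.2, 90.8 and 83.2 TPM in MM1S. Both lines moved down, MM1S further (difference 0.56 ± 0.077 SE; limma, adjusted p = 0.00039). ARSI, an arylsulfatase, had a difference of 0.83 ± 0.11 (limma, adjusted p = 0.000175) with overlapping siIRF4 levels in the lines, 2.74 to 3.48 and 2.61 to 2.96 TPM. CHRNA6, a nicotinic receptor subunit, moved up in both lines, to 5.58, 5.94 and 5.53 TPM in MM1R and to 2.93, 2.86 and 2.19 TPM in MM1S, with a difference of 0.99 ± 0.18 (limma, adjusted p = 0.00473).

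S100A9, the calcium-binding partner of S100A8 and a myeloid and keratinocyte protein, had the highest difference among the named genes. It went from 21.9, 25.4 and 27.0 to 98.5, 91.6 and 94.0 TPM in MM1R, without overlap. In MM1S it was at 64.9, 64.0 and 97.2 TPM in CTRL and at 98.6, 105 and 45.3 TPM in siIRF4, which overlapped. The difference was 1.83 ± 0.35 (SE; limma, adjusted p = 0.00974), and the call was lost with the 12 libraries alone (adjusted p = 0.0792) and with a replicate block (adjusted p = 0.105).

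The marker RNA of other cell types in MM1S has to be read beside this value. S100A8 was at 40.9, 41.5 and 75.8 TPM in MM1S CTRL and at 49.2, 63.4 and 17.1 TPM in MM1S siIRF4, and was 0 in every MM1R library. Both genes were highest in replicate 3 within MM1S CTRL and lowest in replicate 3 within MM1S siIRF4, as was KRT5 at 65.8 and 16.8 TPM. The 13 epithelial markers summed to 138 to 238 TPM in MM1S and to 33.9 to 39.4 TPM in MM1R CTRL, where the 166 to 198 TPM of MM1R siIRF4 was mostly KRT15. The 12 myeloid markers summed to 89.5 to 198 TPM in MM1S. In MM1R they summed to 49.5 to 57.7 TPM in CTRL and to 127 to 136 TPM in siIRF4, within the MM1S range. CD14, LYZ and MPO were under 1 TPM on average in every group. The part of this RNA in the S100A9 difference was not tested. In MM1R, KRT5, KRT14, DCN and S100A8 were at or near 0, while SPARC, FN1, SFN and CD68 of the same lists had CTRL means of 25.0, 8.92, 10.6 and 28.5 TPM.

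**Figure D5:**
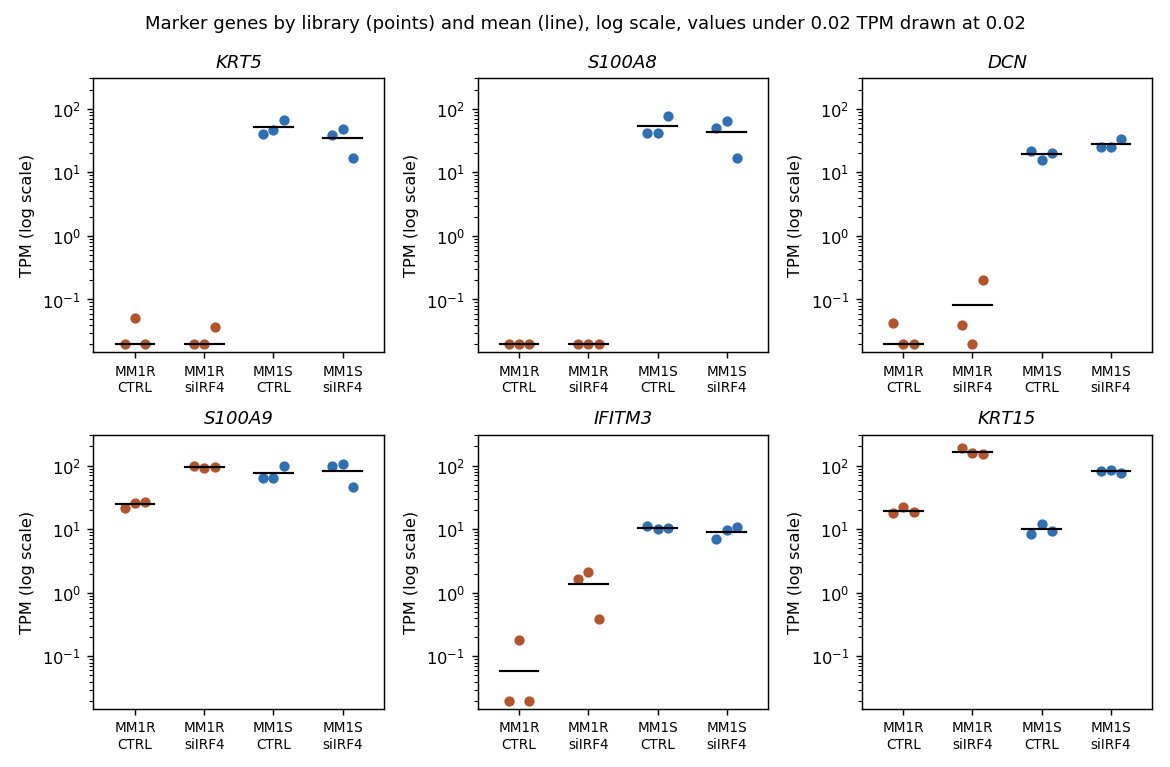
TPM of 6 genes in the 12 libraries on a log axis, as points with the group mean (line), where values under 0.02 TPM are drawn at 0.02. KRT5, S100A8 and DCN lie at 15.6 TPM or more in MM1S and at 0.203 TPM or less in MM1R, S100A9 steps from at most 27.0 to at least 91.6 TPM in MM1R, and KRT15 steps up in both lines.

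IFITM3 and IFITM2, membrane proteins that block virus entry, had higher responses in MM1R from unequal starting levels. IFITM3 was at 0, 0.179 and 0 TPM in MM1R CTRL and at 1.62, 2.10 and 0.382 TPM in MM1R siIRF4, while MM1S overlapped between 6.92 and 11.1 TPM. Its difference was 1.27 ± 0.29 (SE; limma, adjusted p = 0.0267), called in 5 of the 12 fits that left out 1 library. IFITM2 went from 1.89, 2.78 and 3.14 to 10.9, 14.4 and 8.73 TPM in MM1R and from 3.03, 1.99 and 3.32 to 4.87, 6.88 and 4.48 TPM in MM1S, with a difference of 1.01 ± 0.26 (limma, adjusted p = 0.0441) called in 4 of the 12. The IFITM genes are near-identical copies, so reads could be split between them. In MM1S siIRF4 replicate 3, where KRT5 was lowest at 16.8 TPM, IFITM3 was at 10.8 TPM. The stromal genes had no common order over the MM1S siIRF4 libraries. DCN was highest in replicate 3 at 33.2 TPM. COL1A1, COL1A2, COL3A1, FN1 and SPARC were highest in replicate 1, where IFITM3 was at 6.92 TPM. The part of other cell types' RNA in the IFITM values was not tested.

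Other named genes rested on few libraries or on the scale. TMEM238, with the lowest difference of the named genes at -1.95 ± 0.48 (limma, adjusted p = 0.042), and C11orf96 at -1.02 (adjusted p = 0.0459) were each called in 1 of the 12 fits that left out 1 library, and KCNK12 at -0.80 in 5. BRI3 and FAM89B, at -0.80 and -0.79, were called in all 12, and lost their calls with a replicate block (adjusted p = 0.0545 and 0.0673). NLRP5, near 0 in MM1R, had a difference of -0.88 that turned to 1.11 on recovered reads (adjusted p = 0.478). LTB, the cytokine lymphotoxin beta, had one of 0.55 that turned to -0.18 (adjusted p = 0.866). CES4A, a carboxylesterase at no more than 0.639 TPM in MM1S, had a difference of 0.87, and 0.93 on recovered reads (adjusted p = 0.217).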

How the data were processed

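Total RNA libraries of 3 replicates per group were sequenced. Per the submitters' processing notes, reads were aligned to hg19 with STAR and counted with featureCounts, with FastQC and MultiQC reports and no versions given. The deposited TPM values (transcripts per M, made by the authors, 1 column per library) covered 25370 rows, of which 28 had symbols turned into dates and 1 had no name. These rows were left out. Not given in the sources used here are the annotation, the gene lengths and strandedness.

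The difference (MM1R siIRF4 minus CTRL) minus (MM1S siIRF4 minus CTRL) was tested with limma 3.58.1 in R 4.3.3 on log2(TPM + 1), for genes with at least 1 TPM in at least 3 of the 24 libraries. The fit held 8 group means over the 24 libraries, with a trended robust prior and 16 residual degrees of freedom. Benjamini-Hochberg adjustment ran over all 15113 genes, two-sided. The pseudocount of 1 makes differences of genes near 1 TPM small. The fit was tested on simulated data. Adjusted p-values without a tool beside them are limma's.

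The TPM values were turned back into whole reads where a gene gave whole numbers in every library within 0.02 reads and at least 6 libraries had a value: 20484 genes, at least 99.84% of each library's TPM. No replicate pair agreed within sampling noise. Totals limit the precision of genes near 0.

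The comparison, the members of the 42 lists and the choice of genes to name were chosen with earlier results of these data known. The rule named IRF4, NR3C1 and MYC, the 12 highest and 12 lowest called differences with a group mean of at least 5 TPM, up to 8 called genes per direction with opposite responses of at least 0.5 in each line, up to 3 called members per list and direction, and any member of the plasma cell, B cell, IRF4-linked, apoptosis, glucocorticoid and cell type marker lists. Unnamed RNAs and microRNAs were passed over. Other genes are said to be chosen after their values were seen. Alternatives were a pseudocount of 0.1, other filters, median-of-ratios scaling, an untrended prior, the 12 libraries alone, a replicate block and each library left out. Chosen after seeing the data were voom on those reads, scaling without the 20 most abundant genes and a GC correction. Plots used matplotlib 3.10.9 and Python 3.11.15.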

Additional observations from a re-analysis of the deposited data

Results flagged for a closer look

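Each gene given here had a test of the difference between the responses of the lines themselves (limma, adjusted p under 0.05), and the value in parentheses is the MM1R response minus the MM1S response in log2(TPM + 1). The targeted gene was among them: IRF4 (0.62). Antigen presentation, B cell and other immune genes with a higher response in MM1R were HLA-DRA (0.69), HLA-DRB5 (1.16), HLA-DPA1 (0.40), HLA-DMB (0.87), HLA-DOB (0.76), CD74 (0.33), CIITA (0.52), BTN2A2 (0.38), CD79A (0.79), CD40 (0.59), CXCR5 (1.19), LILRA4 (1.29), CD180 (1.48), CNR2 (1.56), FCRLA (0.64) and LTB (0.55). Those with a lower response were SPI1 (-0.67) and IFI30 (-0.32). On recovered reads with voom, CD79A, CXCR5, LILRA4, CD180, CNR2 and LTB lost their calls, and LTB changed sign.

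Plasma cell, signalling and transcription genes with a higher response in MM1R were CAV1 (0.42), CAV2 (0.58), FKBP11 (0.24), SUB1 (0.31), MYC (0.24), JUN (0.58), NFIL3 (0.56), IFNAR2 (0.32), S100A9 (1.83), IFITM3 (1.27) and IFITM2 (1.01). Lower in MM1R were BHLHE40 (-0.79), LHX8 (-1.47), KLF10 (-0.41), DUSP6 (-0.50), MAPK3 (-0.45), MAP2K2 (-0.38), TGFBR1 (-0.65), F2RL3 (-0.80), TNFRSF8 (-0.81), TSC22D3 (-0.44), DTX3L (-0.53), OAS3 (-0.43), CXCL8 (-1.76), SRF (-0.37), ZYX (-0.67), ACTG1 (-0.36), ACTB (-0.30) and CNN2 (-0.42). Among stress, growth and metabolic genes, higher values in MM1R were found for HSPA1B (0.77), DNAJB1 (0.30), HSPA8 (0.30), HSPD1 (0.24), HERPUD1 (0.40), SEL1L (0.40), PDIA6 (0.19), ATF6 (0.25), SEC61B (0.20), CDC45 (0.25), RFC5 (0.31), WDR43 (0.22), ODC1 (0.22), PDK1 (0.40), ANKRD37 (0.65) and GPX1 (0.52), and lower ones for TRIB3 (-0.40), ACSS2 (-0.52) and PTTG1 (-0.27). The remaining named genes were NLRP11 (1.15), CHRNA6 (0.99), CES4A (0.87) and ARSI (0.83) on the higher side and TMEM238 (-1.95), NRTN (-1.06), C11orf96 (-1.02), NLRP5 (-0.88), KCNK12 (-0.80), BRI3 (-0.80), FAM89B (-0.79) and RTN4RL2 (-0.77) on the lower side. With voom on recovered reads, CES4A, KCNK12, TNFRSF8, IFITM2, CXCL8 and NLRP5 lost their calls, and NLRP5 changed sign.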

How the results depend on the processing

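The IRF4 difference kept its sign and call under all alternatives (0.62 with a replicate block, 0.65 with median-of-ratios scaling, 0.56 to 0.70 leaving out 1 library at a time). The 374 calls became 171 with a pseudocount of 0.1, 243 with the 12 libraries alone, 183 with a replicate block, 579 with voom and 631 with a GC correction, and 215 to 446 leaving out 1 library. Of the 374, 159, 190, 172, 267 and 335 were shared with these fits in the same order. The 132 calls with opposite signs became 69, 82 and 64 under the first 3 of these and 203 with the GC correction, and 80 to 151 leaving out 1 library; they were 84 without MM1R CTRL replicate 1, 80 and 82 without MM1R siIRF4 replicates 2 and 3, and 81 without MM1S CTRL replicate 2. The 6 called MHC class II genes became 3 under both filters at a mean of 5 TPM, which leave the others untested, and were 6 or 7 leaving out 1 library. The slope of 0.896 was 0.894 at a mean of 20 TPM and 0.895 with median-of-ratios scaling. The cause of these changes was not tested.

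For the 78 called genes named, 1435 of 1754 values under alternatives kept direction and call, 317 kept direction only and 2 reversed: LTB (-0.18) and NLRP5 (1.11), both with voom. A total of 31 genes kept both throughout. Same-numbered replicates showed little shared deviation: the correlations of same-numbered CTRL and siIRF4 deviations were 0.082, -0.053 and 0.026 in MM1R and -0.145, 0.094 and -0.053 in MM1S. These values cannot say whether the samples were collected in pairs. A replicate block also leaves fewer residual degrees of freedom, which by itself can end calls. Depth limits genes near 0 in 1 line, where the pseudocount sets the size of the difference.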
